A study of Rattus norvegicus with 4 samples.

Results

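In a rat kidney cell line exposed to hydrogen peroxide (H2O2), 129 genes had a low signal at the lowest dose and a higher one at the highest dose. A gene was taken when 3 conditions on its brightest named probe were met. The probe had to be well above background on all 4 arrays, at least 2-fold lower at 0.003% H2O2 than in the control, and at least 2-fold higher at 0.009% than at 0.003%. Signals were first divided by the 75th percentile of their array. Both thresholds were met by 146 genes (2.93% of the 4987 named genes that were well above background on all 4 arrays), and 17 of them were left out by symbol (solute carriers, collagens, integrins, laminins, cytochromes P450, protocadherins and a few single genes). These values chose the genes, so they are given as a description and nothing was tested with them.

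The cells were NRK-52E, an epithelial line derived from normal rat kidney and used as a model of the renal tubule. Confluent cells received H2O2 in medium for 1 h at 0.003, 0.006 or 0.009%, or no H2O2 in the control, and all 4 cultures were then washed and kept for 12 h in medium without serum. Total RNA of each culture was labelled with a single dye and hybridised to 1 array, so there were no replicates. Each value stands for 1 culture, and 2-fold is used only to sort genes by size. The series asks which molecules from dying cells make the surrounding cells divide.

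H2O2 crosses membranes and oxidises thiol groups in proteins, and cells answer with antioxidant enzymes, a halt of the cell cycle and, at high doses, death. Renal tubule cells meet such oxidants after a loss of blood supply. Confluent tubule epithelium normally carries apical primary cilia, rests on a basement membrane, and makes its energy largely by oxidation of fatty acids and sugars. The 129 genes code for proteins of several of these systems.

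Whether the genes were lowered at the low dose only depended on how the arrays were scaled. With scaling to the 75th percentile, 118 of the 129 were within 2-fold of the control at 0.009%, as were 85.0% of all 4987 genes. With scaling to the 320 spike-in control spots of each array, 113 of the 129 were at least 2-fold lower at 0.009% than in the control, beside 59.3% of all 4987 genes. The 75th percentile itself was 180, 168, 158 and 121 intensity units from the control to the highest dose, while the spike-in signal was 535, 561, 704 and 798. Relative to the spike-ins, the 75th percentile was therefore lower than in the control by log2 differences of -0.17, -0.58 and -1.15 at the 3 doses. How much spike-in was added per culture is not given in the sources used here, so neither scaling can be called the true one, and the genes are described below as lower at 0.003% and, relative to the other genes of the array, higher again at 0.009%.

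On each array 51.8 to 54.9% of probes were well above background, and saturation was not seen. All 4 arrays lay on 1 slide in the order of the dose, so position and dose cannot be told apart. Of the kidney epithelial markers, Krt8, Krt18 and Cdh16 were well above background on all 4 arrays and Cdh1 on the 0.003% and 0.006% arrays, and Epcam and Pax8 on none. These 4, most of the signal being Krt8, summed to 59.6, 56.3, 44.3 and 37.7 times the 75th percentile from control to the highest dose. Krt8 was at -0.09, -0.44 and -0.68 from control and Krt18 at 2.22, 2.76 and 3.10. The Krt18 signal was low, at 11.6 intensity units in control against 10682 for Krt8. Cdh16, a dim gene, was lowest at 0.003% and higher again after it (-1.08, -0.63 and -0.14). Of 6 fibroblast markers, Col1a2, Col3a1, Pdgfrb and Vim were well above background on all 4 arrays, and Dcn and Lum on none. The 4 fibroblast markers summed to 74.3, 37.6, 45.4 and 57.0 times the 75th percentile over control, 0.003, 0.006 and 0.009%, and so moved with the genes described here. Pdgfrb is itself one of the 129, and Col1a2 and Col3a1 also met both thresholds but were left out by symbol. The movement of these genes was thus fixed by the rule. The part of the fibroblast marker movement in the results was not tested. In a bulk culture, fewer cells of a kind and less RNA per cell cannot be told apart. Of 3 endothelial markers, Kdr alone was well above background (0.107, 0.202, 0.246 and 0.322 times the 75th percentile), and the summed macrophage markers, most of them Cd14, were 42.1, 27.2, 22.4 and 23.4 times it.

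For sequence context, the 250 bases before the start of transcription were taken from RefSeq (GRCr8 assembly), which held 112 such windows for 100 of the 129 genes. Capitals mark GC boxes, the letters GGGCGG or their complement CCGCCC, to which SP1 and its relatives bind. The window of Angptl2 (chr3:36914626-36914875, plus strand) is shown as that of a secreted protein among the lowest at 0.003%. Ptprn2 (chr6:143582318-143582567, plus strand) is shown because it alone of the 129 kept both thresholds with spike-in scaling, and Bbs2 (chr19:10915316-10915565, plus strand) as a gene of the cilium.
Angptl2: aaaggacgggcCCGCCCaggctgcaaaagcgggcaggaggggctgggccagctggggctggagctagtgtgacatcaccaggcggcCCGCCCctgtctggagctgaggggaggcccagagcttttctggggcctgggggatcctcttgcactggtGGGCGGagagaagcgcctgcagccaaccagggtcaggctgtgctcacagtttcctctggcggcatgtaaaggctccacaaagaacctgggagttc
Ptprn2: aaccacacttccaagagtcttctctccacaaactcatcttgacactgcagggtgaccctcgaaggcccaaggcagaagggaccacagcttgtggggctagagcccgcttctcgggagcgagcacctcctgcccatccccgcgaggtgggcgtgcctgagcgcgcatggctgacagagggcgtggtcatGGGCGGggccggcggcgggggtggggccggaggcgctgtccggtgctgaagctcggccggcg
Bbs2: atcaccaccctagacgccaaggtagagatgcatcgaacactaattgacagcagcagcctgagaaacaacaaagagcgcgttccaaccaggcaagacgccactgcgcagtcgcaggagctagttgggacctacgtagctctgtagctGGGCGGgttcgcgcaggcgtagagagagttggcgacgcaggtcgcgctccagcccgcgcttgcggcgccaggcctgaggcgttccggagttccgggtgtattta
The Angptl2 window held 3 GC boxes and had 65.2% G and C, and those of Ptprn2 and Bbs2 held 1 GC box each, with 68.0% and 60.4% G and C. A GC box was present in 49.1% of the windows of the 129 genes, beside 59.3% of the 4344 windows of all genes measured on 4 arrays and 30.5% of all 33469 windows. The CCAAT box (CCAAT) was in 32.1, 36.5 and 34.0% in the same order, the TATA box (TATAAA) in 7.14, 7.51 and 12.9%, and the AP-1 motif (TGACTCA) in 2.68, 3.87 and 4.05%. All motifs were searched on both strands. The core of the antioxidant response element, the site of NRF2, was in 14.3% of the windows of the 129 genes, 13.2% of those of measured genes and 10.1% of all windows. The ETS motif (CCGGAAG) was in 11.6, 16.9 and 7.27% and the CHR motif of cell cycle genes (TTTGAA) in 10.7, 10.0 and 16.2%, and the other 7 motifs searched were in at most 5.36% of the windows of the 129 genes. The median G and C content was 58.6%, 60.0% and 51.2%, so in composition the windows were nearer to those of other genes measured in these cells than to those of the whole table. No motif was tested, and a match does not show a binding site.

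**Figure D1:**
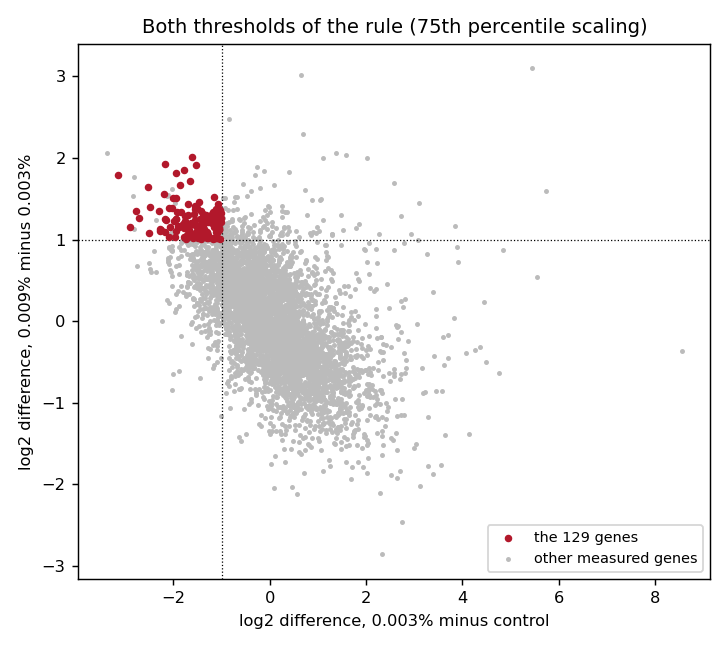
Each point is 1 of the 4987 genes, with its log2 difference 0.003% minus control on the x axis and 0.009% minus 0.003% on the y axis (75th percentile scaling). The dotted lines are the thresholds of 2-fold, and the 129 genes, in red, lie in the upper left corner by construction. Grey points in that corner are the 17 genes left out by symbol.

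The 129 genes had a median log2 difference of -1.46 at 0.003% against control (a level 2.76-fold lower), with a range of -3.15 to -1.01. A 2-fold lower level at 0.003% was found in 12.0% of all 4987 genes, and a 2-fold higher level at 0.009% than at 0.003% in 5.92%. The opposite course, 2-fold higher at 0.003% than in control and 2-fold lower at 0.009% than at 0.003%, was met by 163 genes (3.27%). Both thresholds read the same 0.003% array. The 0.006% array entered neither, though its signals entered the filter on dim probes. There the 129 genes had a median of -0.87 against control, and all 129 lay below the control and above 0.003%. A level at 0.006% above that at 0.003% was found in 49.6% of all genes. Among the 454 genes that were 2-fold lower at 0.003% and outside the threshold on the return, it was found in 79.5%. The order of 0.003%, 0.006% and 0.009% from the lowest to the highest dose level, of which the rule fixed the outer positions, was seen in 39.2% of all genes. In those 454 genes the share with this order was 76.2%. Nothing is read from the count of this order in the 129. The largest step from 0.003% to 0.006% was 1.06 on the log2 scale, and 1 gene of the 129 passed 2-fold there (0.341% of all genes).

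At 0.006%, 45 of the 129 genes were still at least 2-fold below control (8.24% of all genes), against 268 of the 454 genes that were 2-fold lower at 0.003% and outside the threshold on the return, a choice that also used these arrays. At 0.009% it was 11 of the 129 (5.43% of all genes) and 145 of the 454. The median at 0.009% against control was -0.25, with a range of -1.75 to 0.40, and the 0.009% array had the highest level of the 4 in 32 genes and the control array in 97. A level above control at 0.009% was found in 49.9% of all genes. As a share of the log2 drop, the median return at 0.009% was 81.5%. The scanner software's spot error of a difference had a median of 0.21 on the log2 scale for 0.003% against control and for 0.009% against 0.003%, and the highest error of any difference given here was 0.43. It covers the measurement of the spots only, not the spread between cultures. By this error 48 of the 129 genes were below control at 0.009% by more than 2 errors, and none of them was above it by as much. The values above control ended at 0.40, and the same count was not made over all genes. Nothing is therefore read from this imbalance.

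**Figure D2:**
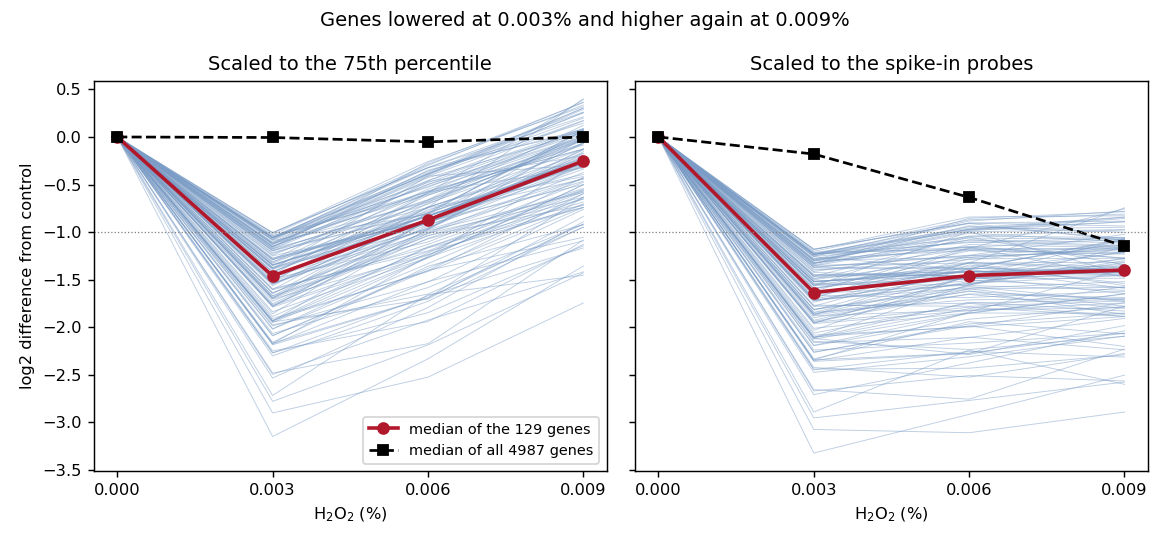
Thin lines are the 129 genes and the red line their median, as log2 difference from control against H2O2 dose in percent, and the dashed black line is the median of all 4987 genes. With 75th percentile scaling (left) the red line runs through -1.46, -0.87 and -0.25 and the black line stays near 0, while with spike-in scaling (right) the red line stays low, at -1.64, -1.46 and -1.40, and the black line reaches -1.15.

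Ranks among the 4987 genes of an array need no scaling. The median rank percentile of the 129 genes was 45.5 in control, 28.5 at 0.003%, 35.0 at 0.006% and 42.1 at 0.009%. All 129 ranked lower at 0.003% than in control, as did 52.9% of all genes, and all 129 ranked higher at 0.009% than at 0.003%, as did 51.1% of all genes. The ranks come from the same arrays that chose the genes, so the rule all but fixed these counts and nothing is read from them. At 0.009% 101 of the 129 genes still ranked below their place in control, as did 55.2% of all genes. With spike-in scaling the 129 genes had medians of -1.64, -1.46 and -1.40 against control at the 3 doses, while the median of all genes was -0.18, -0.64 and -1.15. At 0.006% 112 of them were at least 2-fold below control (31.4% of all genes), and none of the 129 was above control at 0.009% (7.54% of all genes were). On that scale their difference of 0.009% minus 0.003% had a median of 0.24 and a range of 0.03 to 1.04, against -0.92 for all genes, of which 6.56% were higher at 0.009% than at 0.003%. Since this scaling moves every gene by the same amount, their course relative to other genes is the same on both scales. What changes is the level, which on the spike-in scale stayed low at all 3 doses.

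**Figure D3:**
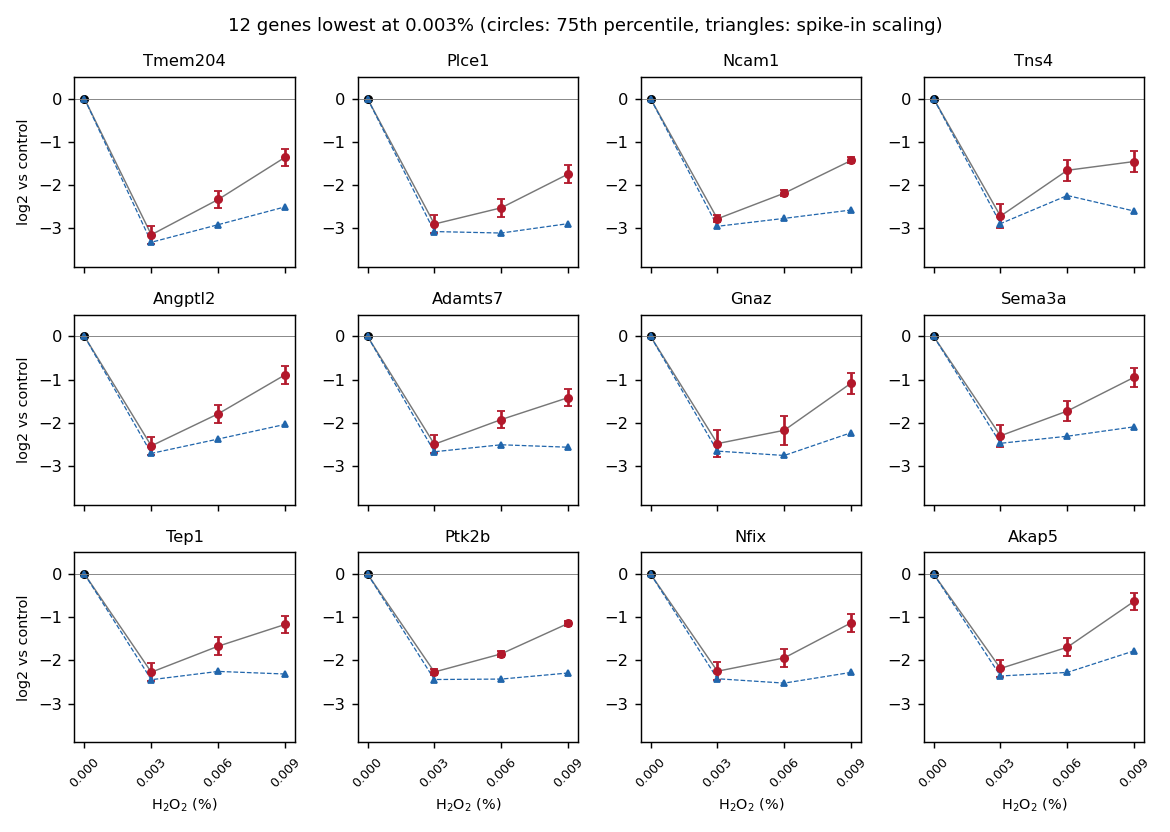
The 12 genes lowest at 0.003% are drawn as log2 difference from control against H2O2 dose in percent, with circles and bars for 75th percentile scaling and its spot error, and triangles for spike-in scaling. All 12 circles lie higher at 0.009% than at 0.003%, from 1.08 for Adamts7 to 1.79 for Tmem204. The triangles stay between -2.89 (Plce1) and -1.78 (Akap5) at 0.009%.

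Among 14 genes of the cell surface and adhesion, the median differences from control were -1.66, -1.10 and -0.29 at 0.003, 0.006 and 0.009%. Tmem204, a membrane protein of cell junctions, had the lowest value of all 129 genes. Its level was 6.92 in control, 0.779 at 0.003%, 1.37 at 0.006% and 2.70 at 0.009%, in multiples of the array's 75th percentile, the unit of all levels below. It was 8.88-fold lower at 0.003% than in control (log2 -3.15, spot error 0.21) and 3.46-fold higher at 0.009% than at 0.003%, and the control array stood above all 3 doses. Ncam1, the neural cell adhesion molecule, which is made in the developing kidney, read 0.979, 0.142, 0.215 and 0.363 from control to the highest dose. Its differences of -2.78, -2.19 and -1.43 left it at less of its control level at 0.009% than most of the genes. Under the normexp background correction, which compresses low signals, they were -1.41, -1.18 and -0.75. Cspg4, the NG2 proteoglycan of pericytes and progenitor cells, had one of the largest returns, with levels of 3.09, 0.685, 1.29 and 2.61. It was 3.81-fold higher at 0.009% than at 0.003%, and -0.24 from control there, or -1.39 with spike-in scaling.

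Ptprn2, a membrane protein of secretory granules related to tyrosine phosphatases, had the largest return of the 129 genes. Its level was 0.472 in control, 0.155 at 0.003%, 0.282 at 0.006% and 0.624 at 0.009%. The highest dose stood above the control (log2 0.40). The return of 4.02-fold kept both thresholds with spike-in scaling too (1.04 for 0.009% minus 0.003%), but within its spot error of 0.258 from the threshold. Under normexp the difference of this dim gene at 0.003% was -0.76, so it did not keep both thresholds there. With spike-in scaling its level at 0.009% was below control, at -0.75. A second Ptprn2 probe was not well above background on all arrays. Sirpa, the receptor that reads the CD47 signal on other cells, was at 23.3, 6.11, 8.77 and 15.4, and Nrxn2, a neurexin of synaptic adhesion, at 33.6, 11.5, 17.3 and 29.8. Nrxn2 had a second probe well above background, with a difference of -1.63 at 0.003% and a larger return of 2.65. The other surface genes were Nectin2 and Bcam, adhesion molecules of epithelia, Flot2, a protein of membrane microdomains, Cmtm8, the receptor phosphatases Ptprs and Ptprq, Cd200, a ligand that restrains myeloid cells, and Mme, the brush border peptidase neprilysin. They lay between -2.16 (Nectin2) and -1.29 (Ptprq) at 0.003% and between -0.95 (Bcam) and -0.24 (Mme) at 0.009%.

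Secreted and matrix proteins, again 14 genes, had medians of -1.68, -1.05 and -0.51, and 7 of them were still 2-fold below control at 0.006%. Angptl2, a secreted angiopoietin-like protein whose promoter window is printed above, had levels of 4.98, 0.858, 1.44 and 2.68. It was 5.80-fold lower at 0.003% than in control and 3.13-fold higher at 0.009% than at 0.003%, and all 3 doses lay below the control. Adamts7, a secreted metalloprotease that cleaves matrix proteins, read 17.1, 3.04, 4.51 and 6.41. It stayed 2-fold below control at 0.009% (log2 -1.42, spike-in -2.57). Sema3a, a secreted guidance cue that acts on axons and vessels, was at 0.736, 0.149, 0.222 and 0.382. For this dim gene normexp gave -1.12 at 0.003% and -0.43 at 0.009%, against -2.30 and -0.95. Fam20c, the kinase that phosphorylates secreted proteins in the Golgi, was at 137, 32.0, 52.4 and 83.6, a difference of -2.09 at 0.003% and -0.71 at 0.009%.

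Il33, an alarmin cytokine released from injured cells, was measured by a pair of probes. Its brightest probe was at 1.08, 0.319, 0.546 and 0.780, and the second had differences of -2.02 at 0.003% and -0.11 at 0.009% against control. Both probes gave the lowest value at 0.003% and a higher one at each further dose. Adam15, a membrane metalloprotease, had levels of 193, 92.7, 129 and 203 and was at 0.07 from control at 0.009%. The remaining genes of this group were Ccn5, a matricellular protein also called WISP2, Ltbp1 and Fbn2, which hold latent TGF-beta in the matrix or form microfibrils, Il1rn, the antagonist of the interleukin-1 receptor, Crispld2, P4ha3, a subunit of collagen prolyl hydroxylase, Spon1, a matrix protein, and Eddm3b, named for its place in the epididymis. Their differences at 0.003% ran from -2.07 (Ccn5) to -1.08 (Eddm3b). With spike-in scaling all 14 secreted and matrix genes were at least 2-fold below control at 0.009%, beside 59.3% of all genes. The fibroblast markers moved in the same way in these arrays: Col1a2 was at -1.96, -1.35 and -0.51 from control, Col3a1 at -1.74, -1.22 and -0.70, and Vim at -0.57, -0.39 and -0.18. Col1a2 and Col3a1 met both thresholds themselves and were left out only by symbol, so their drop and return add no support. The kidney epithelial marker Cdh16, a dim gene, moved likewise (-1.08, -0.63 and -0.14), while Krt8 and Krt18, the latter with a low signal, did not.

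Receptors and intracellular signalling proteins formed a group of 16, with medians of -1.35, -0.85 and -0.11. Plce1, phospholipase C epsilon, which makes second messengers downstream of Ras and is needed by glomerular podocytes, had levels of 2.12, 0.283, 0.368 and 0.632. It was 7.48-fold lower at 0.003% than in control and had the lowest value of the 129 genes at 0.006% (-2.53) and at 0.009% (-1.75). Gnaz, a G protein alpha subunit of the inhibitory class, was at 0.515, 0.0920, 0.114 and 0.243. Its signal at 0.003% was near background (15.4 intensity units), and with normexp its difference there was -0.93, against -2.48. Ptk2b, the kinase PYK2, which is activated by calcium and by oxidants, was measured at 1.67, 0.346, 0.463 and 0.754. Its spot errors were among the smallest (0.07), because its probe has 10 spots on each array, all read from the same culture. It stayed below control at 0.009% by -1.14. Akap5, an anchor for protein kinase A at the membrane, read 18.2, 3.99, 5.62 and 11.7, a return of 2.94-fold that left it at -0.63 from control.

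Pdgfrb, the platelet-derived growth factor receptor beta of mesenchymal cells, had levels of 3.43, 0.763, 1.07 and 1.82. It was lower than control at every dose, by log2 values of -2.17, -1.69 and -0.92. Elmo3, a helper of Rac activation, was at 35.0, 16.0, 26.3 and 39.5, and Arhgap29, a GTPase-activating protein, at 0.233, 0.0898, 0.119 and 0.209. Elmo3 ended above its control level (0.17) and Arhgap29 slightly below it (-0.15), and with spike-in scaling both were below control, at -0.97 and -1.30. Also in this group were Arrb1 (beta-arrestin 1), Fgf13, an intracellular relative of the fibroblast growth factors, Impa2 (inositol monophosphatase), Npr2, the receptor of C-type natriuretic peptide, Pde4d, a cAMP phosphodiesterase, Inpp5d, the inositol phosphatase SHIP1, Gng8, a G protein gamma subunit, Styxl1, an inactive phosphatase, and Or5p6b, an olfactory receptor of a large family whose copies may share the probe. They lay between -1.69 (Arrb1) and -1.04 (Styxl1) at 0.003%.

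Channels and proteins of vesicle fusion numbered 9 and had medians of -1.59, -1.20 and -0.50, the lowest group median at 0.006%. Kcnh2, the potassium channel hERG, was at 7.59, 2.12, 3.15 and 5.36, and Cacna1g, a T-type calcium channel, at 0.675, 0.244, 0.385 and 0.496. Both were below control at all 3 doses, at -0.50 and -0.44 with the highest. Ano10, of the anoctamin family, stood at 63.1, 30.3, 45.3 and 66.4, near its control level at 0.009% (0.07, spike-in -1.07). Kcnmb4, a subunit of calcium-activated potassium channels, had the lowest value of the group (-2.18 at 0.003% and -1.09 at 0.009%). Gja5, a connexin of gap junctions, the vesicle proteins Sv2a, Stx2 and Vamp1, and Rph3al, an effector of Rab27, completed it, with values of -1.95 (Gja5) to -1.13 (Vamp1) at 0.003%. Vamp1 had a second probe with -0.98 at 0.003% and a return of 1.17.

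The 11 cytoskeletal genes had medians of -1.52, -0.90 and -0.37. Tns4, a tensin of focal adhesions, was at 0.768, 0.117, 0.243 and 0.280. It was 6.58-fold lower at 0.003% than in control and remained 2-fold lower at 0.009% (-1.45). Its signal was low, at 19.5 intensity units at 0.003%. With normexp its differences were -1.12 at 0.003% and -0.57 at 0.009%, so it was within 2-fold of control at the highest dose. Septin10, of the filament-forming septins, had levels of 0.908, 0.316, 0.604 and 1.19, ending above its control (0.39) after a return of 3.77-fold. With spike-in scaling it was at -0.76 at 0.009%, so its place above the control held on the 75th percentile scale and not on that one. Anxa6, a calcium-dependent membrane-binding annexin, was at 16.8, 5.78, 8.35 and 12.9, and its second probe gave -1.88 at 0.003% and a return of 1.05. Dync1i1, an intermediate chain of the dynein motor, was at 5.17, 1.97, 2.76 and 4.09. Add3, Ank3, Cald1, Mybphl, Pdlim4, Krt15 and Limd2, which cap, anchor or bind actin, spectrin, myosin or keratin filaments or carry LIM domains, lay between -2.09 (Add3) and -1.15 (Limd2) at 0.003%.

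Genes of the cilium and the centrosome were 8, with medians of -1.35, -0.80 and -0.21. Sdccag8, a centrosomal protein mutated in human kidney ciliopathy, was at 0.861, 0.224, 0.369 and 0.640. Tekt1, a tektin of ciliary microtubules, was at 0.593, 0.155, 0.303 and 0.544. Bbs2, a subunit of the BBSome that carries cargo into cilia and the gene of the third promoter window, was at 1.33, 0.349, 0.599 and 0.830. These 3 genes had nearly equal values at 0.003% (-1.94, -1.94 and -1.93) and different ones at 0.009% (-0.43, -0.13 and -0.68). Rsph1 (radial spoke), Sclt1 (distal appendage of the mother centriole), Dync2i2 (dynein-2, which moves cargo along cilia), Cstpp1 and Arl2 (microtubule and tubulin regulators) lay between -1.39 (Rsph1) and -1.06 (Dync2i2) at 0.003%. The low signals of Rsph1, 0.225, 0.0856, 0.169 and 0.184, carried a spot error of 0.31 for the difference at 0.003%. Under the normexp background correction, which compresses low signals, Rsph1 was at -0.27 there, Sclt1 at -0.39 and Sdccag8 at -1.06.

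A list of 85 genes of the cilium, put together after these values were seen, had 20 members measured on all 4 arrays. Of these, 9 were 2-fold lower at 0.003% than in control and 8 were 2-fold higher at 0.009% than at 0.003%, and 6 are among the 129. Of all 4987 genes 12.0% and 5.92% met these conditions, and 2.93% met both before symbols were left out. The list's median differences from control were -0.64, -0.40 and -0.05, beside -0.01 and -0.05 at the lower doses for all 4987 genes. Ift46, Ift172 and Ift80, which carry cargo along the axoneme, were at -1.52, -1.47 and -1.11 at 0.003% and at -0.66, -0.84 and -0.35 at 0.009%. Foxj1, the transcription factor of motile cilia, went the other way, with 3.91, 4.24 and 4.63 from the low to the high dose. Ift46, Ift172 and Foxj1, like the rest of this list, were picked with results in view and support nothing by themselves.

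Metabolic enzymes were the largest group, with 30 genes and medians of -1.32, -0.72 and -0.13, and 11 of them stood above control at 0.009%, beside 49.9% of all genes. With spike-in scaling 24 of the 30 were 2-fold lower than control at 0.009%, beside 59.3% of all genes. Pfkm, the muscle type of phosphofructokinase, Fbp2, a fructose bisphosphatase, Pgam2, a phosphoglycerate mutase, Galm, the galactose mutarotase, and Gckr, the regulator of glucokinase, act on sugars. Their values at 0.003% lay between -1.64 (Pfkm) and -1.11 (Pgam2). Galm had levels of 6.81, 2.47, 3.67 and 5.50, and its second probe gave -1.53 at 0.003% and a return of 0.95. Ckb, the brain type of creatine kinase, was at 0.349, 0.111, 0.200 and 0.365, a return of 3.28-fold to 0.07 from control. The Ckb signal at 0.003% was low (18.6 intensity units), and with normexp its differences were -0.43 at 0.003% and 0.31 at 0.009%. Ak3, the adenylate kinase of the mitochondrial matrix, was at 17.2, 4.66, 7.69 and 10.3, and its second probe, with -1.92 at 0.003% and a return of 1.06, met both thresholds too.

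Pdk2, which shuts off pyruvate dehydrogenase, and Coq8a, needed for ubiquinone synthesis, had the lowest values among the enzymes (-1.91 and -1.95 at 0.003%, and -0.74 and -0.71 at 0.009%). Fars2, the mitochondrial phenylalanine tRNA synthetase, was at 1.84, 0.540, 0.876 and 1.26, and a second probe gave -2.15 and a return of 1.24. Eci1, Pecr and Phyh take part in the oxidation or elongation of fatty acids in mitochondria and peroxisomes, with -1.15, -1.24 and -1.12 at 0.003%. Aldh1a2, which makes retinoic acid from vitamin A, was at 7.15, 2.20, 4.21 and 5.44. It ended below its control (-0.39, spike-in -1.54).

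Enzymes that deal with reactive molecules were also present. Ephx1 and Ephx2, the microsomal and the soluble epoxide hydrolase, were at 0.540, 0.239, 0.323 and 0.480 and at 0.180, 0.0893, 0.150 and 0.224. Nudt1 (MTH1), which removes oxidised nucleotides from the pool, was at 1.07, 0.531, 0.854 and 1.24. Msrb2, which reduces oxidised methionine, was at 0.811, 0.390, 0.647 and 0.845. Ephx2 and Nudt1 were, with Ccnb2, Dnase1 and Knstrn, among the genes least lowered at 0.006%, between -0.32 and -0.26 from control. With spike-in scaling Ephx1, Ephx2, Nudt1 and Msrb2 were at -1.32, -0.83, -0.94 and -1.09 at 0.009%.

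St3gal5, the sialyltransferase that makes the ganglioside GM3, had levels of 24.3, 8.75, 12.4 and 24.1, level with its control at 0.009% (-0.01). Fut2, a fucosyltransferase of blood group antigens, was at 1.63, 0.510, 0.879 and 1.15, and Large2, which extends glycans on dystroglycan, at 10.5, 3.05, 4.45 and 6.96. A second Fut2 probe gave -0.82 at 0.003% and a return of 0.68, so it met neither threshold. Lhpp, a phosphohistidine phosphatase, was at 21.5, 9.66, 15.2 and 21.5, and Dcakd, a protein with a dephospho-CoA kinase domain, at 73.0, 35.2, 55.8 and 83.8. Cryzl1, a quinone oxidoreductase-like protein, was at 10.7, 4.91, 6.64 and 10.5. Its other probes disagreed: one gave -1.07 at 0.003% and a return of 0.91, the other -0.10 and 0.04. Thnsl2, Bphl, Csad (taurine synthesis), Gmppa (a regulator of GDP-mannose synthesis) and Fggy made up the rest, with -1.51 (Thnsl2) to -1.16 (Fggy) at 0.003%.

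**Figure D4:**
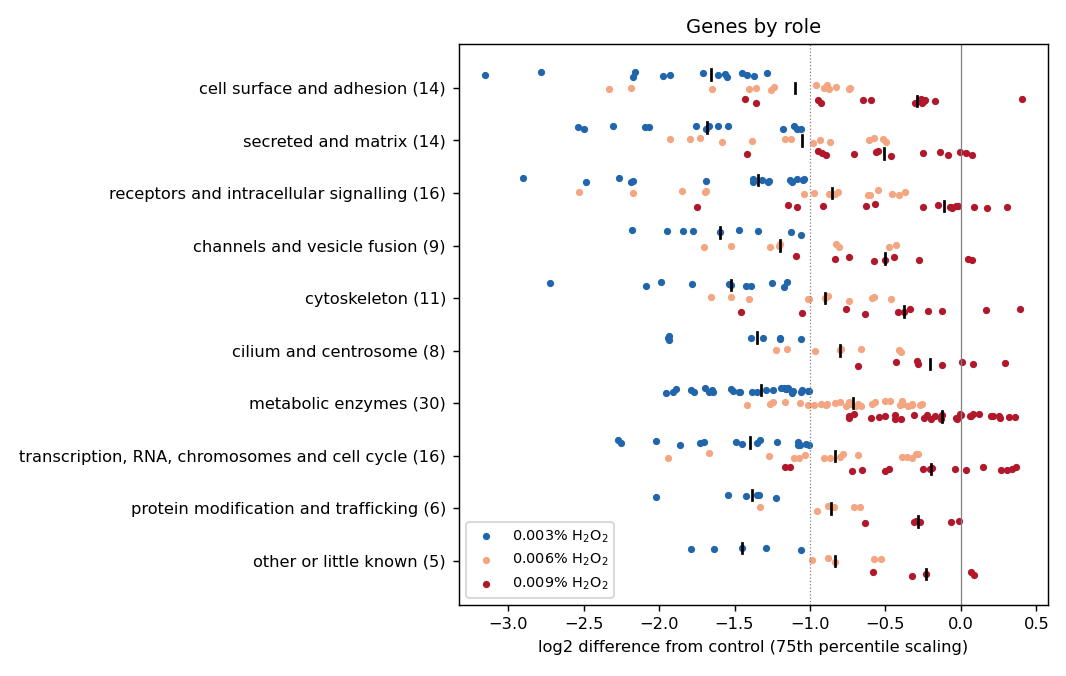
Each point is 1 of the 129 genes, placed by its log2 difference from control on the x axis (75th percentile scaling) and grouped by role, with the doses in 3 colours and black bars for the group medians. In all 10 groups the median at 0.003% lies furthest left, and the 0.009% medians run from -0.51 (secreted and matrix) to -0.11 (receptors and signalling). The group sizes in brackets add up to 129.

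Proteins of transcription, RNA, chromosomes and the cell cycle were 16 genes with medians of -1.40, -0.83 and -0.20. Tep1, a protein of the telomerase and vault particles, was at 18.8, 3.89, 5.90 and 8.36 and stayed 2-fold below control at 0.009% (-1.17). Rbl2 (p130), the retinoblastoma relative that holds resting cells out of the cycle, was at 9.14, 2.26, 3.79 and 6.44. Tcea3, an elongation factor of RNA polymerase II, was at 4.58, 1.26, 2.51 and 4.01, and Mycn, the N-myc transcription factor, at 0.482, 0.146, 0.235 and 0.293. Rbl2 and Tcea3 returned by 2.86-fold and 3.18-fold, while Mycn lay just inside the threshold on the return (1.01).

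Nfix, a nuclear factor I transcription factor, showed the limits of reading 1 probe per gene. Its brightest probe was at 44.9, 9.44, 11.7 and 20.5, a difference of -2.25 at 0.003% and a return of 1.12. The other 2 probes were also lower at 0.003% (-2.30 and -1.53), but at 0.009% they stood at -1.96 and -1.88 from control, with returns of 0.34 and -0.36. The low level was thus seen with all 3 Nfix probes and the return with 1 of them. Akap8l, a nuclear anchoring protein, was at 10.2, 4.85, 7.82 and 12.6, and its second probe gave -0.82 at 0.003% and a return of 1.73.

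The same group held genes used in dividing cells. Ccnb2, cyclin B2 of the entry into mitosis, was at 2.01, 0.988, 1.65 and 2.54, Knstrn, a kinetochore and spindle protein, at 0.878, 0.437, 0.703 and 1.05, and Fancd2, of the repair of DNA crosslinks, at 0.261, 0.0805, 0.124 and 0.166. Ccnb2 and Knstrn ended above control (0.34 and 0.26) and Fancd2 below it (-0.65), and with spike-in scaling all 3 were below control (-0.81, -0.89 and -1.80). With normexp Fancd2, a dim gene, was at -0.43 at 0.003% and at 0.007 at 0.009%. Dnase1, the secreted nuclease, grouped here for its action on DNA, was at 0.301, 0.144, 0.245 and 0.389. Zfp90, Tle2, Smarcc2, Stn1, Atxn1 and Tia1, which act in transcription, chromatin, telomeres or RNA binding, lay between -1.49 (Zfp90) and -1.08 (Tia1) at 0.003%.

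Of the 6 genes of protein modification and trafficking, Trappc3, of the TRAPP complex that tethers vesicles, was at 34.0, 11.7, 17.5 and 27.4, and its second probe gave -0.82 and a return of 0.76. Rnf166, a ubiquitin ligase, was at 48.9, 19.3, 26.6 and 40.6. Senp8, which removes NEDD8, had the lowest value of this group (-2.02 at 0.003%), and Zdhhc1, Psen2 (presenilin 2) and Emc9 lay between -1.42 and -1.23. The last 5 genes are less well known or fall in no group: Krcc1, Tmco4, Ypel4, Ifi35 and Cdip1. Krcc1 was at 1.85, 0.538, 1.01 and 1.94, the fourth largest return of the 129 (3.61-fold). Cdip1, a p53 target that promotes cell death, was at 14.2, 6.82, 9.85 and 15.1, and its second probe gave -1.24 at 0.003% and a return of 0.91.

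Beyond the brightest probe, 15 of the 129 genes had a total of 17 further probes that were well above background on all 4 arrays. All 17 were lower at 0.003% than in control, 12 of them at least 2-fold, with a median of -1.42. At 0.009% 16 of the 17 were higher than at 0.003%, 8 of them at least 2-fold, with a median of 0.95, and 6 probes met both thresholds. Over the 1158 further probes of all measured genes that passed the same filter, 42.1% were lower at 0.003% than in control and 7.94% at least 2-fold lower, 41.5% were higher at 0.009% than at 0.003% and 2.76% at least 2-fold higher, and 1.21% met both thresholds. These probes read the same RNA on the same arrays and share the scaling, so they bear on the probe and not on the culture.

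Other genes of the same pathways came from lists that were written down with earlier results of these data known. No list was tested. In the list of receptor tyrosine kinases and phosphatases 6 of 15 measured genes were 2-fold lower at 0.003% than in control and 2 were 2-fold higher at 0.009% than at 0.003%, both of them among the 129 (Pdgfrb and Ptprs). Of all 4987 genes 12.0% and 5.92% met these conditions, the shares beside which each pair of counts below is to be read, and with lists this short a few genes make a large share. For phospholipase and phosphoinositide signalling the counts were 9 and 2 of 25, with Plce1 and Inpp5d among the 129. Itpr1 and Itpr3, the calcium release channels opened by inositol trisphosphate, were also lowered, at -2.50 and -2.46 at 0.003%, but stayed at -1.86 each at 0.009%. Ion channels gave 7 and 4 of 21, with Kcnh2 and Cacna1g among the 129.

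Motor proteins (kinesins, dyneins and unconventional myosins) gave 6 and 2 of 20, where Myo7a, a myosin of microvilli and stereocilia, was at -2.09, -1.90 and -1.87. Axon guidance genes gave 2 and 1 of 6, chromatin modifiers 4 and 1 of 15, DNA repair 2 and 1 of 21, and each of these lists holds 1 of the 129 genes. Unc5b, a netrin receptor, was at -1.88, -1.69 and -1.70, and Smarca2, a chromatin remodelling ATPase, at -2.06, -1.92 and -1.28. No gene of the ABC transporter list (6 and 0 of 13) or of the Notch, WNT and hedgehog list (3 and 0 of 22) is among the 129. Abca2, a lipid transporter, stood at -2.09, -1.82 and -1.19, and Smo, the hedgehog signal transducer, at -1.38, -1.35 and -1.29. The medians at 0.003% were -0.87 for the phosphoinositide and for the receptor kinase list, -0.90 for ABC transporters, -0.60 for motor proteins, -0.43 for axon guidance, -0.38 for ion channels, -0.25 for chromatin, -0.41 for DNA repair and 0.17 for Notch, WNT and hedgehog, beside -0.01 for all genes.

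Of the 13 measured genes of the mitosis list, 3 were 2-fold lower at 0.003% than in control, and 3 were 2-fold higher at 0.009% than at 0.003%, beside 12.0% and 5.92% of all genes. The medians from control were -0.79, -0.29 and 0.32, so the list ended above control where the 129 genes ended at -0.25. Plk1, Cdc20 and Cdk1, a kinase, an activator of the anaphase complex and the kinase of mitotic entry, were at -1.22, -1.02 and -0.99 at 0.003%, and at -0.42, -0.11 and -0.09 at 0.009%. Aurkb and Birc5, both of the chromosomal passenger complex, were at -0.51 and -0.52 at 0.003% and at 0.77 and 0.74 at 0.009%. Aurka and Cdca8, a spindle pole kinase and another passenger protein, were not lower at 0.003%, with 0.28 and 0.04. Of the 13 Ccnb2 alone met both thresholds. With spike-in scaling the list's median at 0.009% was -0.83 from control, so its place above control does not hold on that scale.

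Many genes lay close to the thresholds. Just inside that on 0.003% against control were Knstrn, Nudt1 and Ephx2 (each -1.01), and just outside it Ddah2 (-0.99), C1qtnf6 (-0.98) and Alad (-0.98). Just inside that on 0.009% against 0.003% were Ephx1 (1.00), Styxl1 (1.01) and Mycn (1.01), and just outside it Rrad (0.998), Klhl7 (0.99) and Sult2b1 (0.99). By their spot errors 40 of the 129 genes were beyond both thresholds by more than 1 error and 15 by more than 2.

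**Figure D5:**
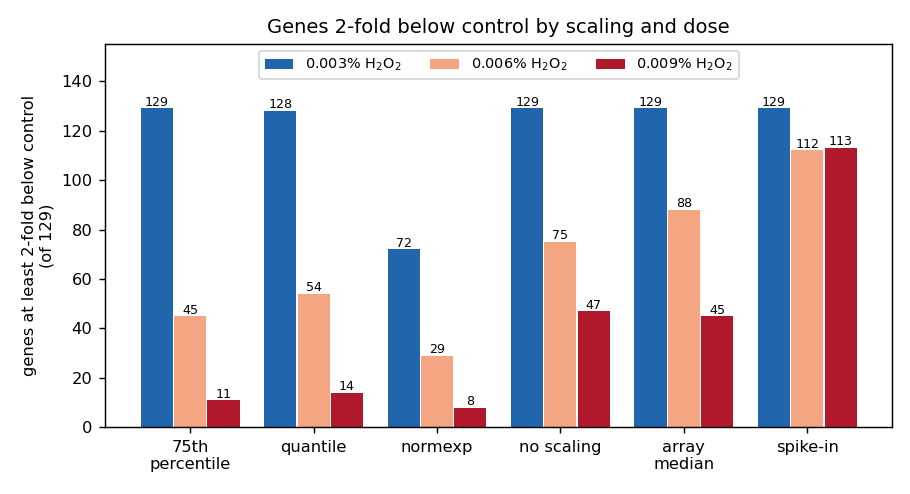
Bars give how many of the 129 genes were at least 2-fold below control, for each H2O2 dose (colours) and each way of scaling or background correction (x axis). At 0.009% the count is 11 with the 75th percentile, 14 with quantile normalization, 8 with normexp, 47 without scaling, 45 with the array median and 113 with the spike-in probes. At 0.003% it is 128 or 129 for all of these except normexp, where it is 72.

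The number of the 129 genes that keep both thresholds was 109 with quantile normalization, 27 with normexp, 16 with the array median, 13 without scaling and 1 with the spike-in probes. Before symbols were left out, both thresholds were met by 2.77% of all genes with quantile normalization, 0.682% with normexp, 0.501% with the array median, 0.421% without scaling and 0.0602% with the spike-in probes. With each of these all 129 were below control at 0.003% and higher at 0.009% than at 0.003%. The array median, no scaling and the spike-ins shift each array by a constant, too small to turn signs that the thresholds had fixed. Quantile normalization and normexp are not constant shifts, but they read the same spots of the arrays that chose the genes. These counts are therefore no sign of stability. The share of all genes that were 2-fold below control at 0.003% was 12.9% with quantile normalization, 7.32% with normexp, 16.0% with the array median, 14.7% without scaling and 17.1% with the spike-in probes. At 0.009% this share was 6.72, 3.83, 23.5, 24.0 and 59.3% in the same order, and the counts in the bar plot are to be read against it.

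With the array median, without scaling and with the spike-in probes, all 129 were also below control at 0.009%. With the 75th percentile 97 were, with quantile normalization 104, and with normexp 92. Levels above control at 0.009% were seen in 20.8% of all genes with the array median, 20.2% without scaling, 42.9% with quantile normalization and 49.1% with normexp. The size of the return, and whether it reached the control, thus followed the scaling.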

How the data were processed

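RNA of 4 NRK-52E cultures was read on 1-colour Agilent arrays (design 014879, annotated on rn4). Per the file headers, Agilent Feature Extraction 10.7.3.1 (protocol GE1_107_Sep09) gave the deposited linear spot intensity after background subtraction and detrending, without scaling between arrays. The authors' deposited value table holds a ratio of the mean spot intensity to the array median (100% of probes, to within 1e-06 of the value; column medians 0.962, 0.955, 0.965 and 0.972), and served as an alternative.

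Outlier spots were left out, log2 intensities were averaged per probe, and the log2 75th percentile of the array was subtracted. RefSeq accessions named 10835 of 41012 probes (8963 genes, of which 6028 were well above background on at least 1 array and 4987 on all 4), and a gene took its brightest probe. Other probes were kept unnamed. Normexp (limma 3.58.1 in R 4.3.3, offset 50) used the median spot signal, because the mean signal that had been planned is not a column used here. The spot error was propagated from the software's error column. With 1 array per dose no test was run, and precision is limited by this number. Scripts (Python 3.11.15, pandas 2.3.3) were tested on simulated data.

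The members and lists were chosen with earlier results of these data known, and the 10 roles after the values were seen. Named by rule were the 12 lowest genes at 0.003%, the 12 largest returns, the 6 highest and the 6 lowest at 0.006%, the 12 brightest in control, up to 10 genes with further measured probes, genes kept under spike-in scaling, genes next to each threshold and up to 3 per list. Values of further members were added after they were seen. Of the promoter windows in the RefSeq table, the bases after the start were left out, so 250 were searched with 14 motifs. A few genes and lists are not reported here.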

Additional observations from a re-analysis of the deposited data

Results flagged for a closer look

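Signals outside the named genes were found in a pair of places. Of the 13116 probes without a RefSeq name that were well above background on all 4 arrays, 489 (3.73%) met both thresholds with 75th percentile scaling, beside 2.93% of the named genes. With spike-in scaling 37 of these 13116 probes did, beside 3 of the 4987 named genes. The units differ, since every unnamed probe counts and a named gene counts once, by its brightest probe. Of the further probes of named genes 1.21% met both thresholds with 75th percentile scaling. Among the symbols left out (solute carriers, collagens, integrins, laminins and others), 17 genes met both thresholds. No group had enough arrays for a search of outlying samples.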

How the results depend on the processing

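Under the alternatives run, no median over the 129 genes changed sign, and neither did a 2-fold difference of a named gene, though the thresholds fixed most of these signs. Differences at 0.009% against control that were above 0 and under 2-fold, such as that of Ptprn2, were below 0 with spike-in scaling. The rule was met by 129 genes with the 75th percentile, 122 with quantile normalization, 127 with the mean of a gene's probes, 129 with outlier spots kept, 204 without the filter on dim probes, 46 in the brighter 50% of genes, 28 with normexp, 18 with the array median or the authors' deposited table, 15 without scaling (an alternative chosen after seeing the data) and 2 with spike-in scaling. Of the 129 genes, 46, 27, 16, 13 and 1 kept both thresholds in the brighter 50%, with normexp, with the array median or the authors' table, without scaling and with the spike-ins. Genes 2-fold below control at 0.006% numbered 17 in the brighter 50%, 29 with normexp, 88 with the array median or the authors' table, 75 without scaling and 112 with the spike-ins, against 45. At 0.009% they numbered 4 in the brighter 50%, 45 with the array median or the authors' table, 47 without scaling and 113 with the spike-ins, against 11. The median of 0.009% minus 0.003% was 0.79 with the array median or the authors' table, 0.74 without scaling and 0.24 with the spike-ins. The median at 0.009% against control was -0.81, -0.82 and -1.40 in the same order, and that at 0.006% was -1.46 with the spike-ins. The changes with the array median, without scaling and with the spike-ins follow from the constant each subtracts from an array, those of the filters from the number of genes left. Normexp adds an offset of 50 to each spot, which shrinks the log2 differences of dim signals. The share of this offset in the changes was not tested. No paired analysis was possible because each dose has 1 array. Precision is limited by the single culture per dose, and genes with signals near background are compressed most by normexp.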
